A study of Saccharomyces cerevisiae with 12 samples.

Results

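The transcript changes described here lie between 120 min and 24 h without oxygen in Saccharomyces cerevisiae, budding yeast, on acetate. They were chosen by time alone: for each open reading frame (ORF) and each gas, the log2 ratio at 120 min was subtracted from that at 24 h, and the difference is called the step. Of the 6150 ORFs in the table, 5797 had a value on all 4 arrays of these times and were used. The other 353 ORFs were left out.

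BY4741 cells, a haploid laboratory strain of mating type a with deletions at URA3, LEU2, HIS3 and MET17, were grown on glucose and then moved to nylon membranes on solid YP acetate. They were placed in pure carbon monoxide (CO) or pure nitrogen (N2), and the series holds 12 arrays from 15 min to 24 h. The 4 groups used here are CO for 120 min, N2 for 120 min, CO for 24 h and N2 for 24 h, with 1 array each. On every array RNA of gas-exposed cells carried Cy5, and RNA of cells of the same strain and medium in room air, harvested at that time, carried Cy3. The sources describe the cells as arrested in division, reversibly, by anoxia. All arrays come from 1 strain and 1 carbon source, with no array of cells returned to air.

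Acetate is a carbon source that yeast can use only by respiration: it enters as acetyl-CoA, is burned in the TCA cycle, and is turned into sugar through the glyoxylate cycle and gluconeogenesis. Without oxygen the electron transport chain has no final acceptor, so cells on acetate lose both their energy supply and their route to new biomass. Budding yeast remodels its wall at each division, and a set of daughter-specific enzymes opens the septum between mother and daughter.

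Values are log2 of gas over air. Base 2 was assumed because of how widely the values spread, and gas over air because of the dyes, since no source used here states either. A positive step means that the ratio to air was higher at 24 h than at 120 min. Such a step can arise in the gas-exposed cells or in the air-exposed cells, whose own 24 h on acetate enter the second ratio, and these cannot be told apart. Less RNA of a gene per cell and fewer cells that express it cannot be told apart either. Since each gas and time had 1 array, the 2 gases stood in for replicates of the step. The error given after each mean step is the standard error of limma, a linear model fitted to every ORF. The model shares information on the spread across ORFs. With 1 residual degree of freedom beside a prior of 5.35, the error reflects mostly that shared spread and less the gene's own. A step was called when its Benjamini-Hochberg adjusted p over all 5797 ORFs was under 0.05. No source used here says whether CO and N2 arrays of a time had a common air reference, so these p-values measure the spread between the gases and may leave out that of the air cultures. A permutation of 2 arrays against 2 cannot go below an exact two-sided p of 0.333.

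The ratios were wider at 24 h than at 120 min. The standard deviation over the 5797 ORFs went from 0.892 to 1.196 in CO, which is 1.34 times as wide. It went from 0.844 to 1.272 in N2, or 1.51 times as wide. The arrays' medians stayed between -0.18 and -0.01, and the median step was -0.05 in CO and 0.02 in N2. The order of the ORFs changed as well. Across ORFs, which are not independent replicates, the ratios at 120 min and 24 h correlated at a Pearson r of 0.574 (Spearman rho 0.573) in CO and 0.571 (rho 0.568) in N2, with different gas and air samples at each end. Within arrays the median ORF moved by 15.9 percentile points in CO and by 16.1 in N2.

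**Figure D1:**
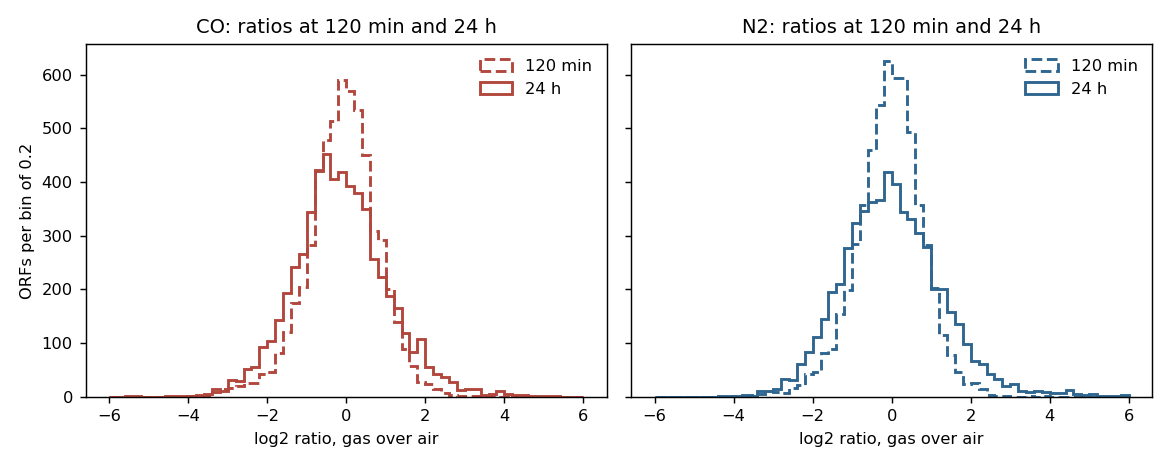
Number of ORFs (vertical axis, in bins of 0.2) by log2 ratio of gas over air (horizontal axis) for CO on the left and N2 on the right. The dashed line is 120 min and the solid line 24 h, and each line holds the same 5797 ORFs from 1 array. The 24 h distributions are lower in the middle and broader, with standard deviations of 1.196 and 1.272 against 0.892 and 0.844.

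The step was called in 482 ORFs, 8.31% of those tested. It was positive in 286 of them (4.93%) and negative in 196 (3.38%). At an unadjusted p under 0.05 there were 1800 ORFs. The smallest called steps were 1.44 and -1.43, so steps below about that size were not called with these 4 arrays. In the text a gene rose or fell only when its step was called. The number depends on how the spread is estimated: it was 118 when the step had to exceed a log2 size of 0.5, and 1965 when all 12 arrays set the spread. Where a call below is said to be lost without 1 array, that spread of all 12 arrays was used with the array left out, and where it is lost on ranks, the same fit was made on normal scores of the ranks within arrays. As a description for each gas alone, 766 ORFs (13.2%) had a step of at least 2-fold upward in CO and 896 (15.5%) downward, against 974 (16.8%) and 798 (13.8%) in N2.

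Among ORFs with a gene symbol, CWP1 and PCK1 had the highest called steps. CWP1, a mannoprotein of the wall, stood at 0.21 in CO and 1.20 in N2 at 120 min, and at 4.91 and 5.82 at 24 h. Both 24 h values lay far above both 120 min values, and the step was 4.66 ± 0.33, or 25.3-fold (adjusted p = 0.0158). PCK1 encodes phosphoenolpyruvate carboxykinase, the entry to gluconeogenesis. Its ratios of 0.48 and 0.26 at 120 min became 4.60 and 4.71 at 24 h, a step of 4.29 ± 0.33 (19.5-fold, adjusted p = 0.0158). CHA1, the serine and threonine deaminase, went from 0.53 and 0.43 to 4.16 and 4.75, a step of 3.98 ± 0.35. STL1, which imports glycerol together with protons, was below air at 120 min with -0.27 in CO and -0.56 in N2, and stood at 3.23 and 3.66 at 24 h. PCK1, CHA1 and STL1 lay within 2-fold of air on both 120 min arrays, CWP1 in CO alone, and all 4 were far above air at 24 h.

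HXT6 and HXT7 are near-identical high-affinity hexose transporters, so their signals may not be separate. HXT6 went from 0.94 in CO and 0.76 in N2 to 4.31 and 4.99, and HXT7 from 0.62 and 0.81 to 3.85 and 4.92. Their steps were 3.80 ± 0.37 and 3.67 ± 0.37. MEP3, an ammonium permease, rose from 0.59 and 0.62 to 3.95 and 4.13. In these 3 genes both gases were high at 24 h and near air at 120 min.

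ARO9, the aromatic aminotransferase of tryptophan, phenylalanine and tyrosine breakdown, rose by another path. It was at -3.51 in CO and -3.41 in N2 at 120 min, among the lowest ratios of both arrays, and at 0.49 and -0.05 at 24 h. Its step of 3.68 ± 0.35 was therefore a return to the level of air.

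Among the genes that fell, PDC6, a minor pyruvate decarboxylase, had the most negative step. It was at 1.29 in CO and 0.46 in N2 at 120 min and at -3.25 and -2.88 at 24 h, so it crossed from above air to below it on both gas pairs (-3.94 ± 0.40, adjusted p = 0.0161). SNO1, a glutaminase subunit of vitamin B6 synthesis, fell from -0.65 and 0.64 to -3.21 and -3.93. PSK2, a PAS-domain protein kinase that regulates sugar storage and translation, fell from 1.01 and 1.04 to -2.07 and -2.40. CTF13, a kinetochore subunit, fell from -0.51 and 0.43 to -3.39 and -3.19. All 4 lay below every 120 min value of their own on both 24 h arrays.

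PUN1, a plasma membrane protein of the wall stress response, and PRM5, whose transcript follows the cell wall integrity pathway, had steps of -3.19 ± 0.33 and -2.92 ± 0.33. BOP2, whose role is not known well, went from 2.93 and 2.04 to 0.03 and -1.26. IZH4, a membrane protein of the IZH family, was the highest ratio of the 120 min N2 array with 5.81, and stood at 3.21 in CO. After 24 h it was still above air, with 0.77 and 2.32, with a step of -2.96 ± 0.39 that lost its call without the gas term (adjusted p = 0.0861). PHO92, an RNA-binding reader of methylated adenosine, fell from -0.75 and -0.07 to -2.42 and -4.17. HRK1, a kinase that activates the plasma membrane proton pump, and PPQ1, a protein phosphatase, fell by 2.84 and 2.83 on the log2 scale.

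**Figure D2:**
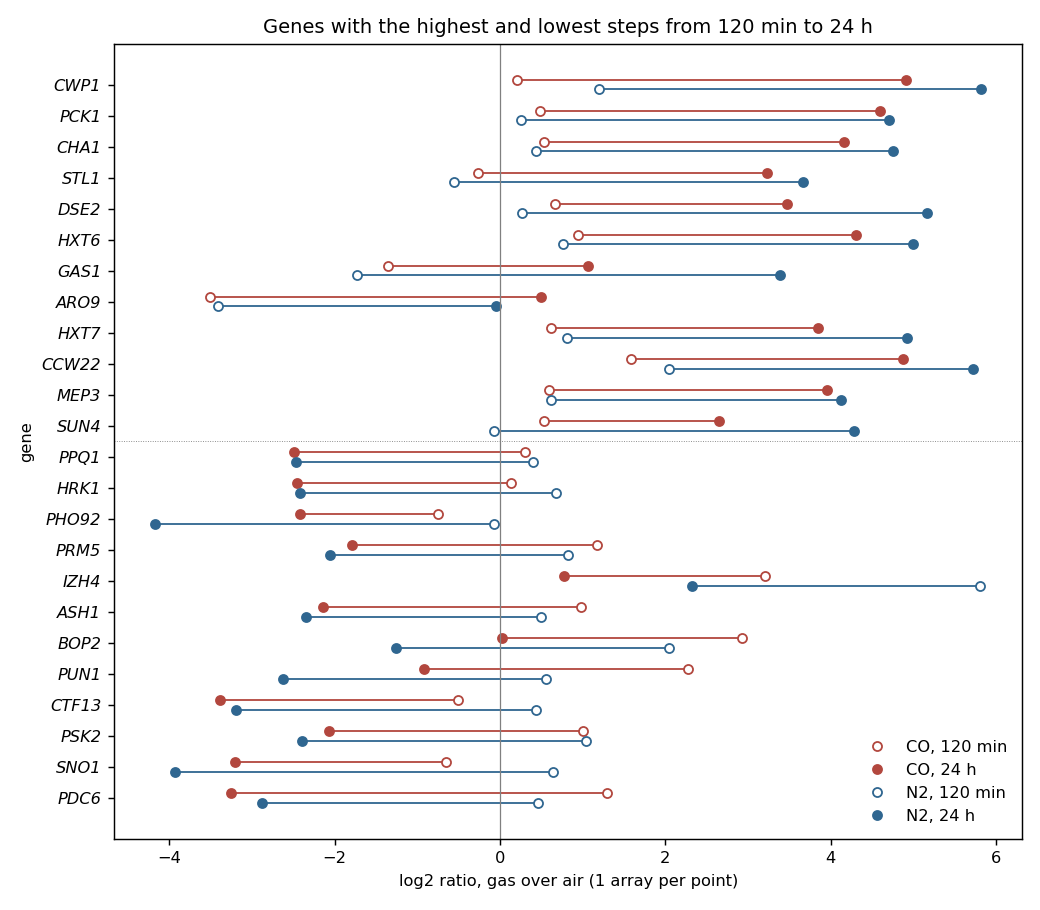
The 12 highest and 12 lowest called steps among ORFs with a gene symbol whose rank within the array moved the same way in both gases. The horizontal axis is the log2 ratio of gas over air, each point is 1 array, open points are 120 min, filled points 24 h, red CO and blue N2. CWP1 ends at 4.91 and 5.82, whereas ARO9 starts at -3.51 and -3.41 and ends near 0.

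Genes that act when daughter cells separate rose in 7 cases (58.3%) and fell in 1 (8.3%) of 12 measured, against 4.93% and 3.38% of all ORFs. The list had a median step of 2.20 against -0.04 over all ORFs. DSE2, a daughter-specific wall glucanase, went from 0.67 in CO and 0.27 in N2 to 3.47 and 5.16 (3.85 ± 0.53, adjusted p = 0.0216). SUN4, another septum protein of the glucanase type, went from 0.53 and -0.07 to 2.65 and 4.28. DSE4 and EGT2, both involved in opening the septum, had steps of 2.90 ± 0.46 and 2.67 ± 0.34. DSE1, SCW11 and AMN1, an inhibitor of the mitotic exit network made in daughters, also rose.

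ASH1, a repressor of mating-type switching that is made in daughters, went the other way. It stood at 0.98 in CO and 0.50 in N2 at 120 min and at -2.14 and -2.35 at 24 h. SIC1, an inhibitor of the mitotic kinase, had an uncalled step of -0.46. The chitinase CTS1 was already at 1.55 and 2.28 at 120 min and stood at 2.54 and 2.74 at 24 h, also without a call. The list's median lay between 0.13 and 0.34 on the 8 arrays of 15 to 60 min and reached 2.49 in CO and 3.00 in N2 at 24 h.

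The structural wall proteins divided into genes that rose and genes that fell, with a median step of 1.06. Of 15 measured, 6 rose (40.0%) and 4 fell (26.7%), against 4.93% and 3.38% of all ORFs. GAS1, which remodels wall glucan, turned from -1.36 in CO and -1.73 in N2 to 1.07 and 3.39. The step was 2.43 in CO and 5.12 in N2, and the mean step was 3.77 ± 0.63 (adjusted p = 0.0292). SCW10, a glucanase-like wall protein, went from 0.07 and -1.40 to 2.13 and 2.95. TIP1, a cold-induced mannoprotein, went from 0.98 and -0.42 to 3.24 and 3.60. SCW4, a relative of SCW10, was already high at 2.18 and 2.76 and reached 4.72 and 5.92. Its call was lost on ranks (adjusted p = 0.369), as it stood near the top of the arrays at both times. CIS3, a wall protein with internal repeats, rose by 2.13 ± 0.44.

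The wall genes that fell were HSP150, SED1, BGL2 and PST1. HSP150, like CIS3 a member of the PIR family of repeat proteins, was at -0.72 in CO and -0.92 in N2 at 120 min and at -3.37 and -3.27 at 24 h (-2.50 ± 0.33, adjusted p = 0.0216). SED1, a stress-induced GPI-anchored protein, went from 0.60 and -0.60 to -1.96 and -2.64. BGL2, a wall transglucosidase, went from 1.34 and 0.28 to -0.74 and -0.99, a call lost without the gas term (adjusted p = 0.0554). PST1, a GPI-anchored protein, fell from -0.99 and -1.29 to -2.41 and -2.86, a call lost on ranks (adjusted p = 0.0789). CCW12, a major wall mannoprotein, had an uncalled step of 1.80 (adjusted p = 0.0564). CCW22, annotated as a pseudogene related to it, rose by 3.49 ± 0.34, from 1.58 and 2.04 to 4.88 and 5.72. The probes may not separate that pair, and the call of CCW22 was lost on ranks (adjusted p = 0.07).

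Ty ORFs encode the structural (TYA) and enzymatic (TYB) proteins of yeast retrotransposons. Of the 27 measured, 21 rose (77.8%, against 4.93% of all ORFs) and none fell, with a median step of 2.68. The ORFs of a Ty family share near-identical sequence, so the 27 are not separate measurements, and the list was set after Ty ORFs had been seen among the highest steps. The list's median was 0.86 in CO and 0.67 in N2 at 120 min, after 0.05 to 0.51 on the 8 earlier arrays, and 3.28 and 4.41 at 24 h. YHR214C-B, the Ty ORF with the highest step, went from 0.40 and 0.81 to 4.69 and 5.38. The lowest was YJL114W with a step of 0.14. YER138C, YJR027W, YCL019W, YAR009C and YML039W, with steps of 2.31 to 2.71, lost their calls on ranks (adjusted p from 0.187 to 0.546), and YLR035C-A lost its call without the 120 min CO array (adjusted p = 0.0706).

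**Figure D3:**
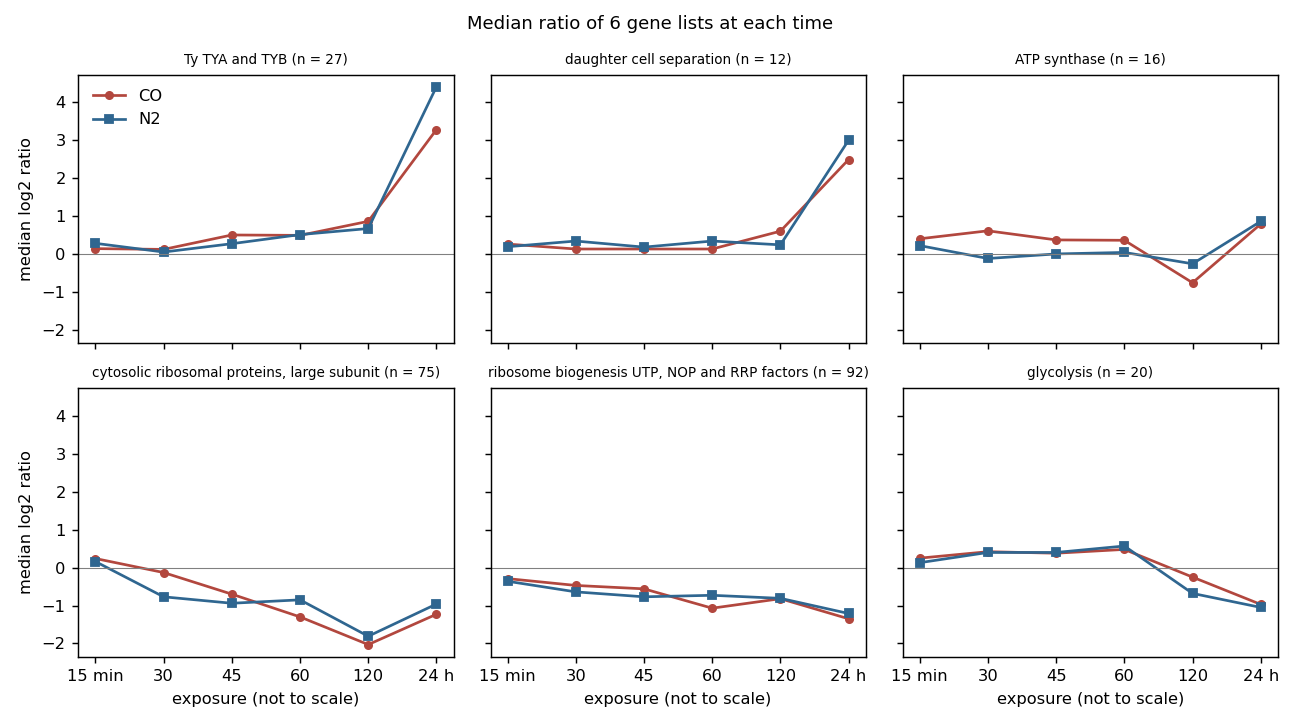
Median log2 ratio of gas over air (vertical axis) at each time of exposure (horizontal axis, not to scale) for 6 gene lists, with CO in red and N2 in blue and 1 array per point. Ty ORFs have medians of 0.86 in CO and 0.67 in N2 at 120 min and end at 3.28 and 4.41. Daughter separation genes stand at 0.60 and 0.24 and end at 2.49 and 3.00. The large ribosomal subunit has its lowest medians, -2.03 and -1.81, at 120 min.

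Hexose transport changed in both directions, with 4 transporters up (20.0%) and 2 down (10.0%) of 20 genes measured. Over all ORFs 4.93% rose and 3.38% fell. HXT4, a high-affinity carrier, went from 0.51 in CO and 0.93 in N2 to 3.01 and 4.27, and the low-affinity carrier HXT3 from 1.22 and 1.06 to 2.62 and 3.59. The call of HXT3 was lost on ranks (adjusted p = 0.177). HXT2 fell from 0.97 and -0.55 to -2.88 and -2.05. HXT5, a carrier of slow-growing cells, fell from 0.06 and 0.13 to -2.36 and -1.66. The list's median step was -0.29 in CO and 0.64 in N2.

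Of the 20 glycolytic genes measured, 1 rose (5.0%) and 3 fell (15.0%), against 4.93% and 3.38% of all ORFs, and the median step was -0.50. The enolases ENO1 and ENO2, close paralogs that also serve gluconeogenesis, had steps of -2.20 ± 0.39 and -1.52 ± 0.34. ENO1 was at -0.23 in CO and -0.98 in N2 at 120 min and at -2.95 and -2.66 at 24 h. The hexokinases parted: HXK1, the form used on poor carbon sources, rose from -0.27 and -0.52 to 0.98 and 2.11, and HXK2, the form used on glucose, fell from -0.64 and -0.11 to -2.54 and -1.35. The call of HXK2 was lost without the gas term (adjusted p = 0.0794) and with each array scaled by its spread (0.0595). Without the 120 min CO array the call of ENO2 was lost (adjusted p = 0.0663), and without the 120 min N2 array that of HXK1 (0.0521). The glycolysis median was above air on the 8 arrays up to 60 min (0.13 to 0.57) and was -0.97 in CO and -1.05 in N2 at 24 h.

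The glyoxylate cycle and gluconeogenesis had 4 genes up (36.4%) and 1 down (9.1%) of 11, against 4.93% and 3.38% of all ORFs, with a median step of 0.74. Besides PCK1, FBP1 rose, the fructose bisphosphatase that completes gluconeogenesis, from -0.18 in CO and 1.35 in N2 to 2.26 and 2.86. Its call was lost on ranks (adjusted p = 0.0732). SFC1, the succinate and fumarate exchanger of the mitochondrion, and ICL2, a mitochondrial isocitrate lyase relative, had steps of 1.88 ± 0.33 and 1.77 ± 0.37. SFC1 lost its call without the 120 min CO array (adjusted p = 0.068) and ICL2 without the 120 min N2 array (0.117). CIT2, the peroxisomal citrate synthase, crossed air downward, from 1.13 and 1.40 to -1.59 and -1.05 (-2.58 ± 0.33, adjusted p = 0.0216).

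Acetate transport and the carnitine shuttle, which carries acetyl groups into mitochondria, had 3 genes up (30.0%) and 1 down (10.0%) of 10. Over all ORFs 4.93% rose and 3.38% fell. ACH1, which transfers coenzyme A between organic acids, went from -0.71 in CO and -0.74 in N2 to 2.66 and 0.63, a call lost without the gas term (adjusted p = 0.0673). ATO2, an ammonium and acetate transporter, rose by 1.49 ± 0.33, a call lost on ranks (adjusted p = 0.179). The carnitine carrier CRC1 rose by 1.79 and the carnitine acetyltransferase YAT2 fell by 1.70 on the log2 scale. CRC1 lost its call without the 120 min CO array (adjusted p = 0.0792) or the 24 h N2 array (0.0538), and YAT2 without the 120 min N2 array (0.086). None of the 14 genes of peroxisomal beta-oxidation was called, with a median step of 0.30.

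Glycerol genes were called in 3 of 12 cases: 2 rose (16.7%) and 1 fell (8.3%), against 4.93% and 3.38% of all ORFs. With STL1, the glycerol kinase GUT1 rose, from 0.95 in CO and 0.27 in N2 to 3.96 and 2.67. GPD2, the glycerol phosphate dehydrogenase that disposes of surplus NADH without oxygen, was above air at 120 min with 0.97 and 1.31 and below it at 24 h with -1.30 and -0.83 (-2.21 ± 0.33). Glycogen and trehalose genes had no called step, with median steps of 0.18 over 14 genes and -0.36 over 7.

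Genes of the respiratory machinery that were called rose. ATP synthase genes rose in 7 of 16 cases (43.8%, against 4.93% of all ORFs) and fell in none, with a median step of 1.37. ATP1, the alpha subunit of the catalytic part, went from 0.14 in CO and 0.07 in N2 to 3.36 and 1.77. INH1, which blocks the enzyme from running backward, went from 0.31 and 0.10 to 2.37 and 2.89. ATP4 and TIM11, subunits of the stalk and of the dimer, rose by 2.16 ± 0.38 and 2.08 ± 0.37. ATP7, ATP17 and ATP20 also rose, but without the 120 min CO array their calls were lost (adjusted p = 0.249, 0.101 and 0.212). Without the 24 h N2 array those of ATP7 and ATP20 were lost (0.196 and 0.139), and without the 120 min N2 array that of ATP7 (0.0569).

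Of 16 genes of cytochrome c and of complexes III and IV, 3 rose (18.8%, against 4.93% of all ORFs) and none fell. All had a positive mean step, with a median of 0.79. COX13, a subunit of cytochrome oxidase, was at -0.46 in CO and 0.08 in N2 at 120 min and at 2.79 and 2.38 at 24 h (2.77 ± 0.38, adjusted p = 0.0216). CYT1, cytochrome c1, went from -0.95 and -1.03 to 1.47 and 1.69, and COR1, a core subunit of complex III, rose by 1.71 ± 0.34. Of 7 genes for NADH and succinate dehydrogenases, 1 rose (14.3%, against 4.93% of all ORFs) and none fell. It was SDH4, a membrane anchor of succinate dehydrogenase, at -0.82 in CO and -0.74 in N2 before and 2.14 and 1.38 after.

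The TCA cycle had 4 genes up (30.8%, against 4.93% of all ORFs) and none down of 13. FUM1, fumarase, went from -0.78 in CO and -1.10 in N2 to 1.97 and 1.19 (2.52 ± 0.34, adjusted p = 0.0216). MDH1, the mitochondrial malate dehydrogenase, went from -1.84 and -1.63 to 0.40 and 0.19, and IDH2, a subunit of isocitrate dehydrogenase, from -1.44 and -1.30 to 0.87 and 0.28. These last 2 moved from well below air to slightly above it. LSC2, a subunit of succinyl-CoA ligase, rose by 1.49 ± 0.33.

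Mitochondrial import and carrier genes rose in 7 of 25 cases (28.0%) and fell in 1 (4.0%), against 4.93% and 3.38% of all ORFs. MIR1, the phosphate carrier, went from -1.39 in CO and -1.95 in N2 to 1.13 and 0.55. ODC1, an oxodicarboxylate carrier, went from -1.49 and -0.72 to 0.88 and 1.69. PET9, the main ADP and ATP exchanger, and AAC3, its hypoxic counterpart, both rose, by 1.79 ± 0.33 and 1.67 ± 0.38. The porin POR1 and the import channel subunit TIM17 rose as well, and YHM2, a citrate carrier, lost its call without the 120 min CO array (adjusted p = 0.183), the 120 min N2 array (0.0993) or the 24 h N2 array (0.265). OAC1, an oxaloacetate carrier, fell by 1.72 on the log2 scale.

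Mitochondrial ribosomal proteins rose in 13 of 70 cases (18.6%, against 4.93% of all ORFs) and fell in none. A positive mean step was found in 63 of the 70 (median 0.92). MRPL8 went from 0.68 in CO and 0.42 in N2 to 3.03 and 3.07, and MRP1 from 0.13 and -0.01 to 2.33 and 2.50. MRPL17 had the lowest step, -1.08, and was not called. The median ratio of the list changed from -0.42 to 0.34 in CO and from -0.17 to 0.82 in N2.

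Cytosolic ribosomal proteins remained below air as a group and were less far below it at 24 h. For the large subunit 7 of 75 rose and none fell, and for the small subunit 5 of 52 rose and none fell, with median steps of 0.74 and 0.83. The shares that rose were 9.3% and 9.6%, against 4.93% of all ORFs. The large subunit's median ratio was -2.03 in CO and -1.81 in N2 at 120 min, the lowest of the 6 times in both gases, and -1.23 and -0.96 at 24 h. In rank, its median ORF moved from percentile 2.6 to 16.0 in CO and from 2.7 to 21.6 in N2. Of its 75 genes, 8 stood above air in CO at 24 h and 12 in N2, against 2 and 0 at 120 min.

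RPL2A went from -2.34 in CO and -2.65 in N2 to -0.38 and -0.82, and RPS24B from -2.21 and -1.73 to -0.06 and -0.30. RPL34B and RPL30 ended above air, at 0.74 and 1.55 and at 1.02 and 0.90. Many of these genes come as paralogs whose probes may share signal. Without the 120 min CO array the calls of RPL27B, RPL15A, RPL21B, RPL36B and RPS1B were lost (adjusted p = 0.134, 0.052, 0.0892, 0.0676 and 0.13). Those of RPL21B and RPS1B were also lost without the 24 h N2 array (0.0538 and 0.0972), that of RPS1B without the 120 min N2 array (0.0544) and that of RPL27B without the 24 h CO array (0.0632). When each array was scaled by its spread, 42 large-subunit and 34 small-subunit genes were called upward, against 7 and 5 on the values as deposited.

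Genes for building ribosomes, the UTP, NOP and RRP factors, did not follow the ribosomal proteins. Of 92 measured, 1 rose (1.1%) and 2 fell (2.2%), against 4.93% and 3.38% of all ORFs. A negative mean step was found in 77, with a median of -0.44. Their median ratio was -0.82 in CO and -0.81 in N2 at 120 min and -1.35 and -1.21 at 24 h. The median percentile moved only from 17.8 to 13.8 and from 16.4 to 15.4. CIC1, a factor of the large subunit, fell from -0.98 and -0.45 to -2.39 and -2.79, and NOP16 from 0.32 and 0.82 to -1.38 and -1.08. NHP2, a protein of the RNA-guided pseudouridylation complex, rose to 1.09 and 1.15. Of 20 genes for RNA polymerases I and III, 1 fell (5.0%, against 3.38% of all ORFs) and none rose. It was RET1, a subunit of RNA polymerase III, which fell by 1.65 on the log2 scale. RRN3, of the same list, had a larger step of -1.81 that was not called. None of 19 cytosolic aminoacyl-tRNA synthetases was called (median -0.23).

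**Figure D4:**
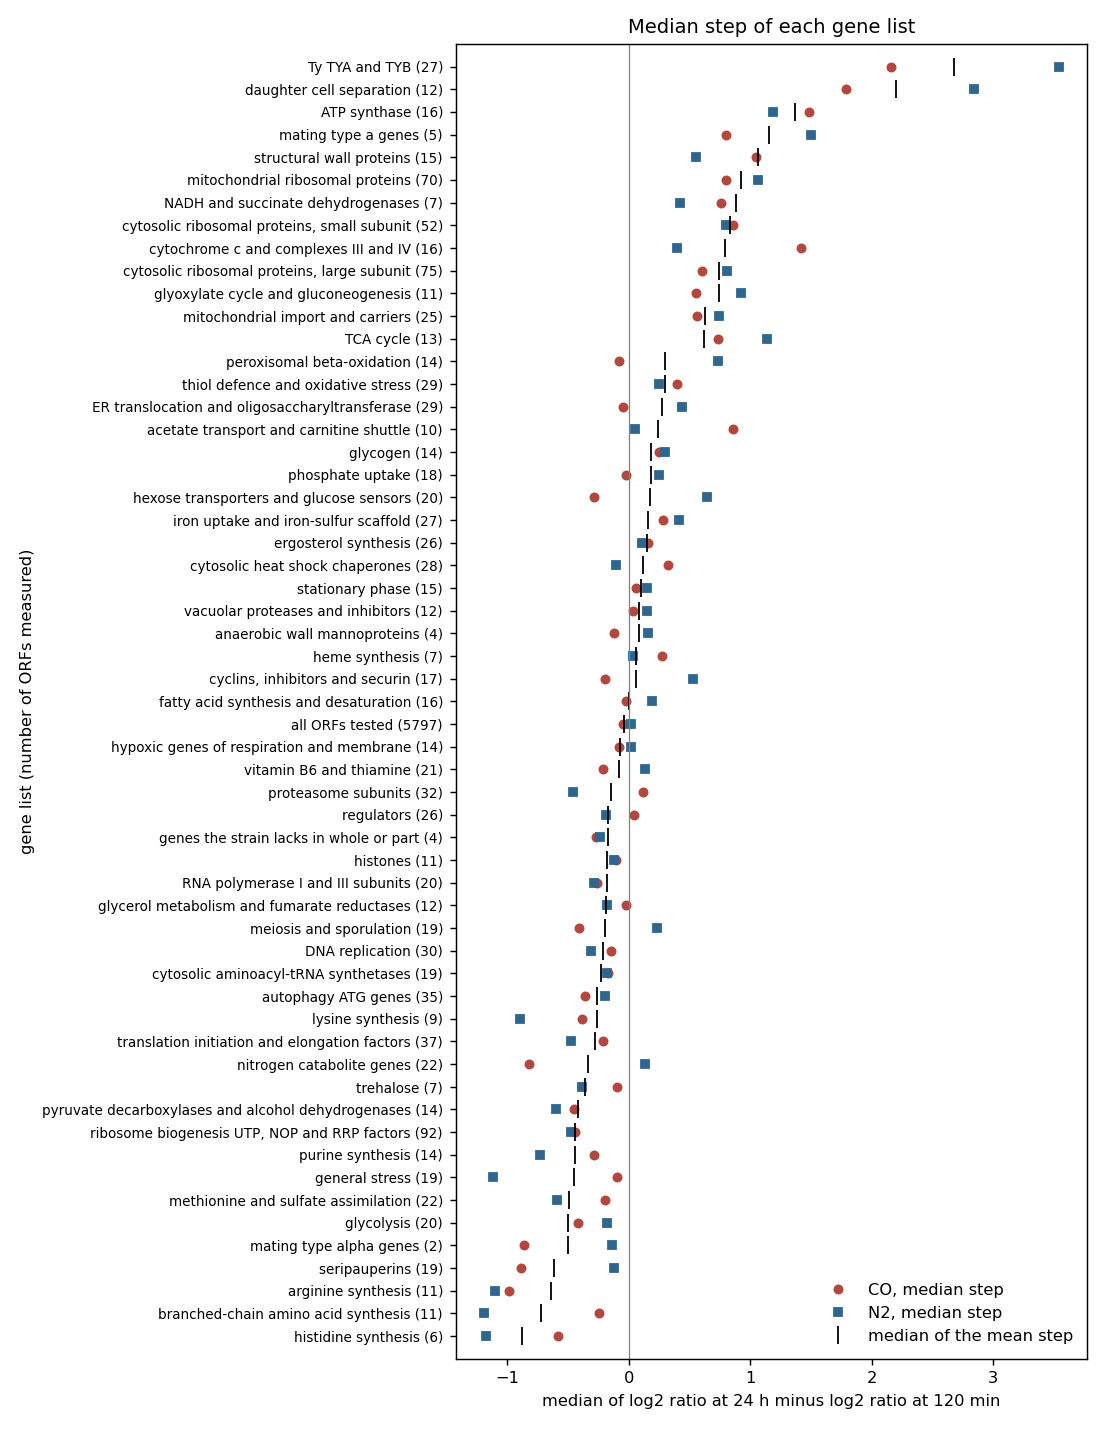
Median step (horizontal axis, log2 ratio at 24 h minus that at 120 min) of each gene list and of all ORFs (vertical axis, number of ORFs measured in brackets). Red circles are the median step in CO, blue squares that in N2, both from 1 array per time, and black bars the median of the mean step. Ty ORFs (2.68) and daughter separation genes (2.20) stand highest, and most lists lie within 1 of the value for all ORFs, -0.04.

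Amino acid synthesis had mostly negative steps with few calls. In the branched-chain pathway 10 of 11 genes had a negative mean step (median -0.72). LEU1, isopropylmalate isomerase, fell from -1.09 in CO and -0.99 in N2 to -2.57 and -3.71. BAT2, the cytosolic transaminase that also starts the breakdown of these amino acids, rose from 0.31 and 0.24 to 2.78 and 3.67 (2.95 ± 0.38). In arginine synthesis 10 of 11 mean steps were negative, with a median of -0.64. LYS2 and HIS1, of lysine and histidine synthesis, fell by 2.04 and 1.76 on the log2 scale. MET28, a cofactor of sulfur gene transcription, fell from 0.66 and 1.0 to -1.41 and -1.0. GLN1, glutamine synthetase, and GLT1, glutamate synthase, fell by 2.01 and 2.31 on the log2 scale, and the permease MEP3 rose. They are the only genes called among 22 nitrogen catabolite genes: 1 rose (4.5%) and 2 fell (9.1%), against 4.93% and 3.38% of all ORFs. That list had 8 positive and 14 negative mean steps, with a median of -0.34.

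Genes of vitamin B6 and thiamine fell in 7 of 21 cases (33.3%, against 3.38% of all ORFs) and rose in none, although the list's median step was -0.08. THI5, THI11, THI12 and THI13 belong to a family of near-identical genes for the thiamine pyrimidine, so their 4 calls may be 1 signal. THI5 went from -0.60 in CO and -0.66 in N2 to -3.69 and -2.64 (-2.54 ± 0.39, adjusted p = 0.0258). THI4, which makes the thiazole part of the molecule, fell by 1.96 on the log2 scale, a call lost with each array scaled by its spread (adjusted p = 0.113). SNZ1, which with SNO1 forms the vitamin B6 synthase and marks stationary phase, went from 1.43 and 1.79 to -0.76 and -0.91.

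Stress and stationary phase genes fell where they were called: 4 of 19 general stress genes (21.1%) and 3 of 15 stationary phase genes (20.0%) fell and none rose, where 3.38% of all ORFs fell. The lists overlap in SSA3. The other stationary phase genes that fell, SNO1 and SNZ1, were already counted with vitamin B6 above, so these shares are not separate results. The other members had both signs: the median steps were -0.45 and 0.10, and 6 of the 19 and 8 of the 15 mean steps were positive. HSP26, a small heat shock protein, went from 1.23 in CO and -0.17 in N2 to -1.52 and -2.57. SSA3, an HSP70 of stationary cells, went from 0.43 and -0.32 to -2.05 and -1.92. GRE2, a reductase, stayed above air and fell from 2.85 and 2.27 to 1.01 and 0.94. Without the 120 min CO array the calls of HSP26 and GRE2 were lost (adjusted p = 0.0557 and 0.0889). YGP1, a secreted glycoprotein of starved cells, had an uncalled step of 1.89. Among 28 heat shock chaperones 2 rose (7.1%, against 4.93% of all ORFs) and 3 fell (10.7%, against 3.38%). HSP26 and SSA3 are again among those that fell. The membrane chaperone HSP30, with 2.14 and 2.19 before and 3.40 and 4.58 after, had no step on ranks (adjusted p = 0.993). AHA1, an HSP90 cofactor, rose by 1.69 ± 0.34 and lost its call without the 120 min N2 array (adjusted p = 0.213) or the 24 h CO array (0.111).

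Autophagy genes fell in 3 of 35 cases (8.6%, against 3.38% of all ORFs) and rose in none, with 16 positive and 19 negative mean steps. ATG1, the kinase that starts autophagy, was already below air at 120 min with -1.26 in CO and -1.03 in N2 and stood at -3.35 and -3.61 at 24 h. ATG3 and ATG5, both of the ubiquitin-like conjugation of Atg8 to lipid, went from above air to below it, ATG3 from 0.76 and 0.71 to -1.16 and -1.32. The vacuolar proteases parted, as PRB1 fell by 1.64 on the log2 scale and PEP4 rose by 1.81. PEP4 lost its call without the 120 min N2 array (adjusted p = 0.0787) or the 24 h N2 array (0.0613).

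Of 14 hypoxic genes of respiration and membrane, AAC3 alone was called (7.1% rose, against 4.93% of all ORFs). It was close to the threshold (adjusted p = 0.0494). Its call was lost with trend and robust settings (0.0505). Their steps ran from -1.10 to 1.67, 6 positive and 8 negative, with a median of -0.07. OLE1, the fatty acid desaturase, stood at 1.81 in CO and 2.94 in N2 at 120 min and at 1.17 and 1.38 at 24 h, without a call. HEM13, a heme synthesis enzyme that uses oxygen, stood at -1.70 and -1.04 and then at -0.08 and 0.20, just short of the threshold (adjusted p = 0.0523). None of 19 seripauperins, small wall proteins of anaerobic cells in a family of near-identical members, was called. Their median ratio at 24 h was -0.30 in CO and 0.77 in N2, after 0.87 and 0.81 at 120 min. In ergosterol synthesis, which needs oxygen, 2 of 26 genes rose (7.7%, against 4.93% of all ORFs) and none fell, with a median step of 0.15. ERG4 went from -0.07 and -0.42 to 1.81 and 2.76 and ERG3 from -1.57 and -2.48 to -0.08 and 0.95.

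Iron uptake had 4 genes up (14.8%) and 1 down (3.7%) of 27, against 4.93% and 3.38% of all ORFs. FET3, the copper-dependent ferroxidase of high-affinity uptake, went from 0.25 in CO and 0.12 in N2 to 2.48 and 3.81 (2.96 ± 0.44). Its partner permease FTR1 went from -1.61 and -2.0 to -0.32 and 0.36. SIT1, a siderophore carrier, rose by 2.62, a call lost without the 120 min N2 array (adjusted p = 0.0639), and FIT3, a wall protein that retains siderophores, rose by 2.24, a call lost on ranks (0.631). TIS11, which binds mRNAs of the response to iron shortage, fell from 0.55 and -0.18 to -1.66 and -1.48. Phosphate uptake had 2 genes up of 18 (11.1%, against 4.93% of all ORFs). SPL2, a regulator of low-affinity uptake, went from -0.28 and 0.72 to 4.07 and 2.47, and VTC1, a subunit of the polyphosphate synthase, rose by 2.46 ± 0.36.

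Of 17 cyclins, inhibitors and partners, 4 rose (23.5%, against 4.93% of all ORFs) and none fell. The list's median step was 0.06, with 9 positive and 8 negative mean steps, and -0.20 in CO. CLN2, a G1 cyclin, went from -0.35 in CO and -0.68 in N2 to 1.94 and 1.93 (2.45 ± 0.33). CLB1, a mitotic cyclin, went from -0.23 and 0.05 to 1.64 and 2.25. CKS1, a subunit of the cyclin-dependent kinase, and FAR1, an inhibitor of G1 cyclins, rose by 1.86 ± 0.33 and 1.80 ± 0.39. In DNA replication RNR1, the main large subunit of ribonucleotide reductase, rose from -2.80 and -3.15 to -0.97 and -0.84. That call was lost without the 120 min CO array (adjusted p = 0.109), the 120 min N2 array (0.065) or the 24 h N2 array (0.105). RNR4, a small subunit, fell from -0.32 and -0.98 to -2.56 and -2.96. The histones HHF2 and HTB2 rose among 11 (18.2%, against 4.93% of all ORFs), by 1.56 and 1.45.

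The transcription factors of these pathways were called in 2 of 26 cases (1 rose and 1 fell, 3.8% each), near the share of all ORFs (4.93% and 3.38%). HAP4, the activating subunit of the complex that drives respiratory genes, went from 0.07 in CO and -0.05 in N2 to 1.79 and 2.03 (1.90 ± 0.33, adjusted p = 0.0329). HAP2, a DNA-binding subunit of the same complex, fell from 0.32 and 0.42 to -1.58 and -0.82. HAP3 stood at -0.46 and -0.38 and then at 0.38 and 1.02, without a call, and HAP5 had a step of -0.29. The heme-responsive activator HAP1, the stress factors MSN2 and MSN4 and the gluconeogenic activators CAT8 and ADR1 had uncalled steps of 0.33, -0.10, -0.43, -0.13 and -0.29. The steps of the 4 subunits of the complex thus had both signs.

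As a check of the labelled strain, marker genes say little here, since each value is a ratio of cells of the same strain. URA3, LEU2, HIS3 and MET17, deleted in this strain, lay between -0.76 and 0.55 on all 4 arrays. Of 5 genes specific to mating type a, 1 rose (20.0%, against 4.93% of all ORFs) and the other 4 were not called. It was STE2, the receptor for alpha factor, which went from 0.46 in CO and 0.18 in N2 to 2.90 and 3.20. The list had 4 positive mean steps and 1 negative, with a median of 1.15 against -0.04 over all ORFs. Both alpha-specific genes measured had negative uncalled steps. Of 19 genes of meiosis and sporulation, programmes of diploids, SMK1 alone was called and rose by 1.77. That share of 5.3% is near the 4.93% of all ORFs that rose. The part of these markers in the other results was not tested.

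The step alone does not show whether a ratio left air or came back to it. With a 2-fold limit on the mean ratio of the gases at each time, 3224 ORFs lay within it at both times. A further 679 went from within it to above air and 691 to below air, of which 202 and 128 were called. Fewer ORFs returned within the limit: 248 from below air, of which 36 rose, and 203 from above, of which 27 fell. Most called steps therefore led away from air by this limit. The limit was the same at both times although the 24 h arrays were wider, and most ORFs began within it. What part the greater width had in these counts was not tested. Another 282 stayed above air and 457 below it at both times.

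Few ORFs crossed from beyond the limit on one side to beyond it on the other, and all of them were called. The 2 that went from below air to above it were GAS1 and ODC1. The 11 that went from above to below were PSK2, PUN1, YLR031W, YBR071W, YOR338W, YBR226C, CIT2, REC102, PET18, YPR078C and GPD2. YLR031W, of no known role, stood at 1.05 in CO and 1.55 in N2 at 120 min and at -1.67 and -1.27 at 24 h. YBR071W went from 1.85 and 0.79 to -1.19 and -1.65.

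Because the 24 h arrays were wider, each step was also read as a change of rank within its array. Of the 482 called ORFs, 478 moved in rank in the direction of their step on both gas pairs. The ranks come from the same values, so for steps of this size a matching direction was largely given. In the fit on normal scores of the ranks, 420 of the 482 were called again. Called ORFs that rose moved by a median of 37.6 percentile points, and those that fell by -50.7. The 4 exceptions in direction were the Ty-region ORF YMR046W-A, FIT3, HSP30 and MPC2, a subunit of the mitochondrial pyruvate carrier. All were near the top of their arrays already at 120 min. Where an ORF was already among the highest or lowest, its rank had little room to change. Among all ORFs 1423 had a mean step of at least 2-fold, upward in 742 (12.8%) and downward in 681 (11.7%), and 153 of these moved by fewer than 10 percentile points, of which 43 were called.

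**Figure D5:**
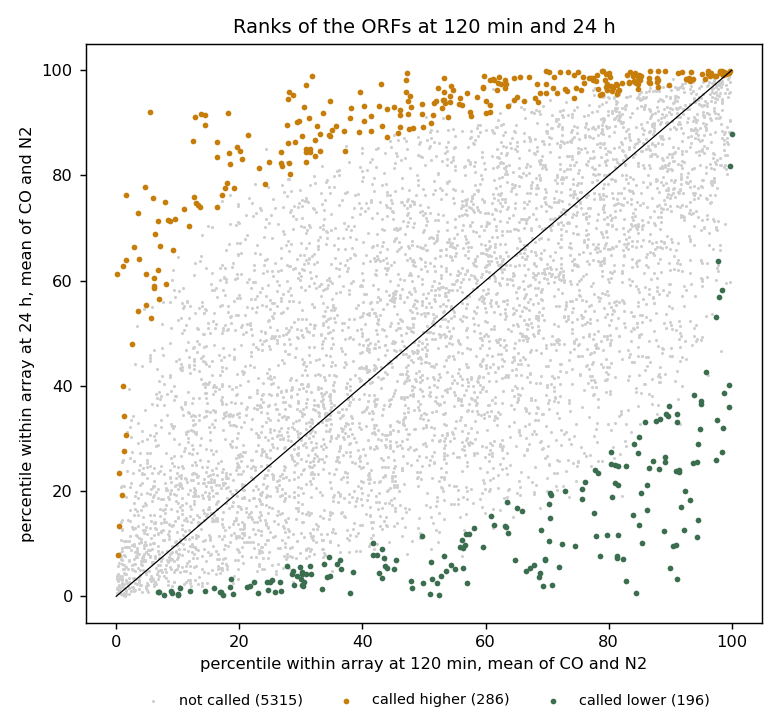
Percentile of each ORF within its array at 24 h (vertical axis) against that at 120 min (horizontal axis), each the mean of CO and N2, for 5797 ORFs. Orange marks the 286 ORFs called higher, green the 196 called lower and grey the rest, and the line marks equal ranks. Called ORFs lie away from the line except in the corners, where ORFs were extreme at both times.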

How the data were processed

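Expression was measured on 2-colour arrays of yeast in CO or N2 (Cy5) against air of the same time (Cy3). The values were used as deposited: log2 ratios per ORF and array, to 2 decimals, calculated by the authors, with base, direction, background correction and normalization not given in the sources used here. ORFs were matched to locus tags of RefSeq's R64 annotation for symbols alone, and 5434 of the 5797 matched. Coordinates and sequences are not used here, and some genes are not reported here.

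The 4 arrays of 120 min and 24 h entered a model of time and gas (lmFit, then eBayes, of limma 3.58.1 under R 4.3.3), which left 1 residual degree of freedom beside a prior of 5.35, and Benjamini-Hochberg adjustment. The number of arrays limits the precision, and signal over background is unknown. The members and the 56 gene lists were chosen with earlier results of these data known. Members of the lists were edited after the files were read: the Ty list was typed out, and wrongly matched genes were removed, once Ty ORFs had been seen among the highest steps, so its count supports nothing.

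Named genes were the 12 highest and 12 lowest called steps with a symbol and matching signs of step and rank in both gases, up to 2 members each way per list, up to 6 reversals each way, the regulators and the genes the strain lacks. Called list members beyond these, all members crossing air and the exceptions in rank were named after their values were seen.

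The fit was tested on simulated data under 2 noise models. With each ORF's own residual as noise it called none of the altered ORFs. With variances drawn from limma's fitted prior, an assumption of the fit itself that favours it, it recovered most of the largest ones. The first outcome means that large steps may be missed as well as small ones.

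Alternatives were centring or scaling each array, quantile normalization, ranks, all 12 arrays with or without array weights, no gas term, ORFs with a value on all 12 arrays, a minimum step, trend and robust settings, and leaving out each array or time.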

Additional observations from a re-analysis of the deposited data

Results flagged for a closer look

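In the following gene lists and genes the step had opposite signs in CO and N2. With 1 array per gas and time these differences were not tested. Nitrogen catabolite genes had a median step of -0.82 in CO and 0.13 in N2, hexose transporters and glucose sensors -0.29 and 0.64, and peroxisomal beta-oxidation -0.08 and 0.73. Cyclins, inhibitors and securin had -0.20 and 0.53, meiosis and sporulation -0.41 and 0.23, and proteasome subunits 0.12 and -0.46. ER translocation and oligosaccharyltransferase had -0.05 and 0.44, cytosolic heat shock chaperones 0.32 and -0.11, and vitamin B6 and thiamine -0.21 and 0.13. The other lists were phosphate uptake with -0.02 and 0.25, anaerobic wall mannoproteins with -0.12 and 0.16, regulators with 0.04 and -0.19, fatty acid synthesis and desaturation with -0.02 and 0.19, and hypoxic genes of respiration and membrane with -0.08 and 0.02. Among genes, MSN2 had steps of 0.39 in CO and -0.59 in N2, and MSN4 -0.90 and 0.03. HIS3 had -0.83 and 0.12, URA3 0.35 and -0.24, and MET17 0.29 and -0.25. These last genes are deleted in whole or part in this strain, so their steps may hold no signal of the genes themselves. No cause was tested.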

How the results depend on the processing

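The count of called ORFs depended on the setting, and the direction of the 186 named genes that were called did so in 1 case. Against 482 calls (286 higher, 196 lower), centring each array on its median gave 734 (458 and 276) and dividing it by its spread as well 730 (458 and 272). Quantile normalization gave 790 (403 and 387), and normal scores of ranks 995 (515 and 480). All 12 arrays gave 1965 (1023 and 942), or 1005 (537 and 468) with array weights. Requiring a step beyond 0.5 gave 118 (76 and 42). Without the gas term there were 604, on ORFs with a value on all 12 arrays 603, and with trend and robust settings 466. With the spread of the remaining arrays, leaving out each of the 4 arrays gave 1131 to 1904 calls (608 to 1051 higher, 520 to 958 lower). Leaving out both arrays of 15, 30, 45 or 60 min gave 1627 (865 and 762), 1902 (1000 and 902), 1815 (962 and 853) and 1841 (958 and 883). Of the 482 ORFs, 407 to 482 were called again under the settings other than the minimum step. Of the 186 named genes, 65 kept their call under every alternative and 65 more lost it under the minimum step alone. HSP30 reversed, to -0.03 under quantile normalization and -0.01 on ranks, because it was at the top of the arrays at both times. Without the gas term the calls of CRC1, AHA1, HHF2, FAR1, SFC1, ICL2, ENO2, FBP1 and YLR035C-A were lost too (adjusted p from 0.0512 to 0.102), and with arrays scaled by their spread those of CIC1, RET1, PRB1, LEU1, OAC1, THI13, ENO2 and FBP1 (0.05 to 0.0892). In gene lists, the calls that rose ranged over all settings from 0 to 42 for the large and 0 to 34 for the small ribosomal subunit, 3 to 44 for mitochondrial ribosomal proteins, 1 to 11 for ATP synthase, 3 to 8 for daughter separation and 17 to 26 for Ty ORFs. With 1 array per gas and time, the error comes from the spread between the gases, mostly as pooled over all ORFs. The gas term pairs the arrays of a gas, and the labels carry no replicate numbers.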

Other observations

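The genes given here were chosen after their values were seen, so they describe single genes and no group. SLT2, the final kinase of the cell wall integrity pathway, stood at 0.05 in CO and 0.00 in N2 at 120 min and at -1.98 and -2.29 at 24 h (-2.16 ± 0.33, adjusted p = 0.0248). The wall sensors MID2 and SLG1 fell by 2.12 and 1.49 on the log2 scale, and CHS1, a chitin synthase, went from 0.74 and 0.09 to -1.39 and -2.69. Other genes of that pathway were not called and had steps of both signs: PKC1 0.03, BCK1 0.14, MKK1 0.68, MKK2 -0.25 and RLM1 -0.67.

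SUR7, a plasma membrane protein, went from 0.18 in CO and -0.35 in N2 to 2.44 and 3.31 (2.96 ± 0.43, adjusted p = 0.0223), and NCE102, another, from 0.35 and 0.77 to 2.71 and 3.13. PIL1 and LSP1, core proteins of the eisosomes near which both are found, had uncalled steps of 1.25 and 0.61. The sodium pumps ENA1, ENA2 and ENA5, near-identical genes in tandem, fell by 1.56, 1.88 and 1.81 on the log2 scale and may be 1 signal. The peptide carriers PTR2, OPT1 and OPT2 had called steps of 2.65, 2.12 and 1.89.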
